A study of Rattus norvegicus with 6 samples.

Results

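The genes described here are the nuclear-encoded components of oxidative phosphorylation (OXPHOS), the pathway that passes electrons through complexes I to IV of the inner mitochondrial membrane and makes ATP at complex V. They were the protein-coding rows of the deposited table whose names begin with Nduf and a letter of a subunit class, Sdh, Uqcr, Cyc1, Cycs, Cox with a subunit number, or Atp5, off the mitochondrial chromosome. The rule took 99 of 34156 rows, and 90 of these passed the filter of at least 10 counts in at least 3 libraries that left 13614 genes for testing. The rule used names and no measured value. It also took 8 complex I assembly factors (Ndufaf genes), which are not subunits and are counted apart.

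Emodin (EMO) is an anthraquinone of rhubarb, and the study asked what it does to rat fibroblast-like synoviocytes labelled with rheumatoid arthritis (RA-FLS), cells of the lining of the joint, under TNF-α, an inflammatory cytokine. The 3 TNF-α libraries came from wild-type RA-FLS given 10 ng/mL TNF-α, and the 3 TNF-α+EMO libraries from the same kind of cells given 10 ng/mL TNF-α together with 80 μmol/L EMO. All 6 therefore carry TNF-α, and no untreated cells were compared here. The labels give day 5 as the time of every sample, whereas the study's methods give a shorter incubation. The cells were bought from a supplier of cell lines, and no source used here ties a library to a named animal or culture beyond the study's mention of biological replicates, so p-values measure the spread between these libraries, which may be technical.

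Complex I (NADH dehydrogenase) and complex II (succinate dehydrogenase) feed electrons to ubiquinone, complex III hands them to cytochrome c, complex IV (cytochrome c oxidase) gives them to oxygen, and complex V (ATP synthase) uses the proton gradient. Every one of these except complex II joins nuclear-encoded subunits to subunits encoded on mitochondrial DNA, so the assembly of a complex draws on both genomes. The transcription factors NRF1, GABP and YY1 and the estrogen-related receptors are known regulators of the nuclear genes.

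Most nuclear OXPHOS transcripts were higher with EMO. Tested with edgeR's quasi-likelihood fit, 58 of the 90 tested genes rose and 9 fell at an adjusted p under 0.05, and 23 did not pass. A change in either direction was found for 67, while 80.9% of all genes tested changed. Of all genes tested, 39.4% rose and 41.4% fell, so that 64.4% of the OXPHOS genes rose against 39.4% and 10% fell against 41.4%. The median log2 fold change was 0.57 (range -1.97 to 5.21), beside -0.01 over all genes. Of those past a log2 fold change of 1 in size, 24 rose and 1 fell, while 19.5% and 27.8% of all genes did so.

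The normalized counts of the 99 genes summed to 155665, 148045 and 157850 in the TNF-α libraries and to 218833, 227734 and 268801 in the TNF-α+EMO libraries. The groups did not overlap, and the sum was 1.55-fold higher with EMO. The genes took 0.894% to 0.964% of a library's counts with TNF-α and 1.24% to 1.48% with EMO. Gene by gene, the 3 TNF-α+EMO libraries all lay above the 3 TNF-α libraries for 60 genes (40.3% of all genes did so) and all below for 10 (42.5%), and the groups overlapped for 20. In bulk RNA, fewer cells of a type and less RNA per cell cannot be told apart.

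**Figure D1:**
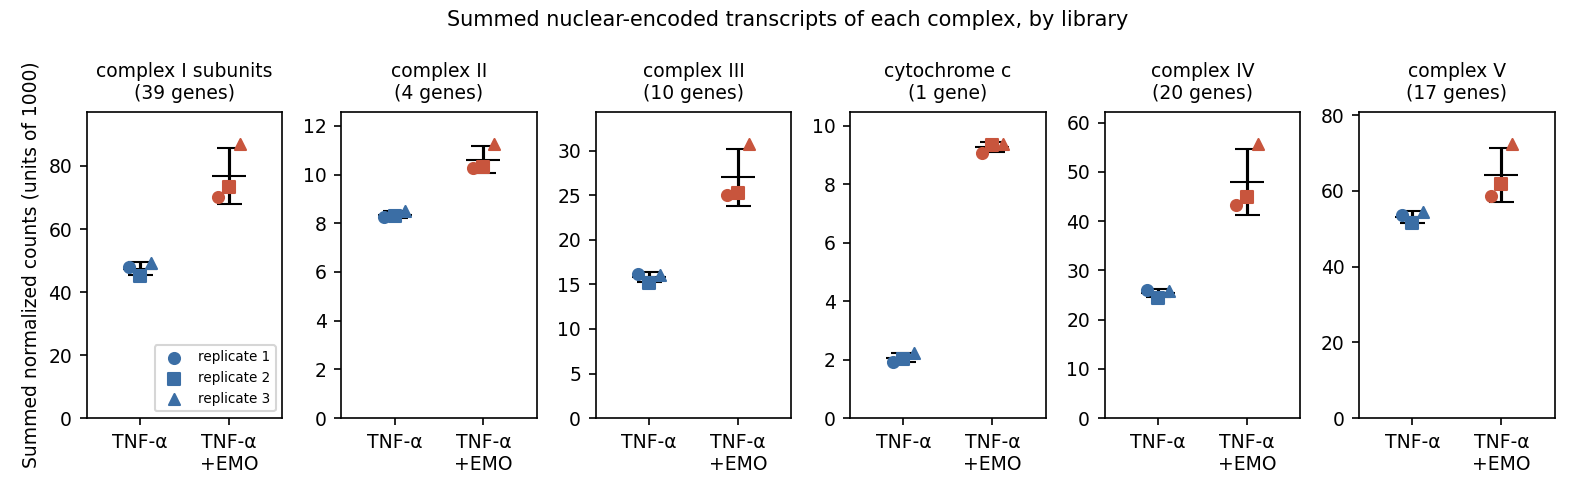
Summed normalized counts (in units of 1000, axis from 0) of the genes of each complex in the 3 TNF-α (blue) and 3 TNF-α+EMO (red) libraries, with a symbol for each replicate, and the mean ± SD as bars. The groups do not overlap for any complex shown, the gap is widest for cytochrome c (4.49-fold) and narrowest for complex V (1.21-fold), and TNF-α+EMO replicate 3 is the highest of its group in every panel.

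A measure other than the treatment moved with this result. The tested OXPHOS genes were short, with a median deposited gene length of 728.5 bases against 2248 over all genes tested, and short genes as a whole were higher with EMO. The median log2 fold change of all genes fell from 0.43 in the shortest of 10 equal bins of length to -0.83 in the longest. Among genes of up to 1000 bases, 45.4% of all genes and 66.1% of the 56 OXPHOS genes rose, with median log2 fold changes of 0.45 and 0.58. Among longer genes, 38.4% of all genes and 61.8% of the 34 OXPHOS genes rose, with medians of -0.088 and 0.53.

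When each library's trend with gene length was removed in the fit, an alternative added after seeing the data, 39 OXPHOS genes rose, 25 fell and 26 did not pass, with a median log2 fold change of 0.15. By that fit 39.8% of all genes rose and 40.6% fell, beside 43.3% and 27.8% of the OXPHOS genes. Of the 58 genes that rose without the length term, 38 also rose with it, 18 no longer passed and 2 fell, and all 9 that fell still fell. The share of OXPHOS genes that rose was close to that of all genes once length was taken out, and the values with the length term are given for each complex below as "length-adjusted". Whether the length trend came from the RNA, the libraries or the cells was not tested.

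**Figure D2:**
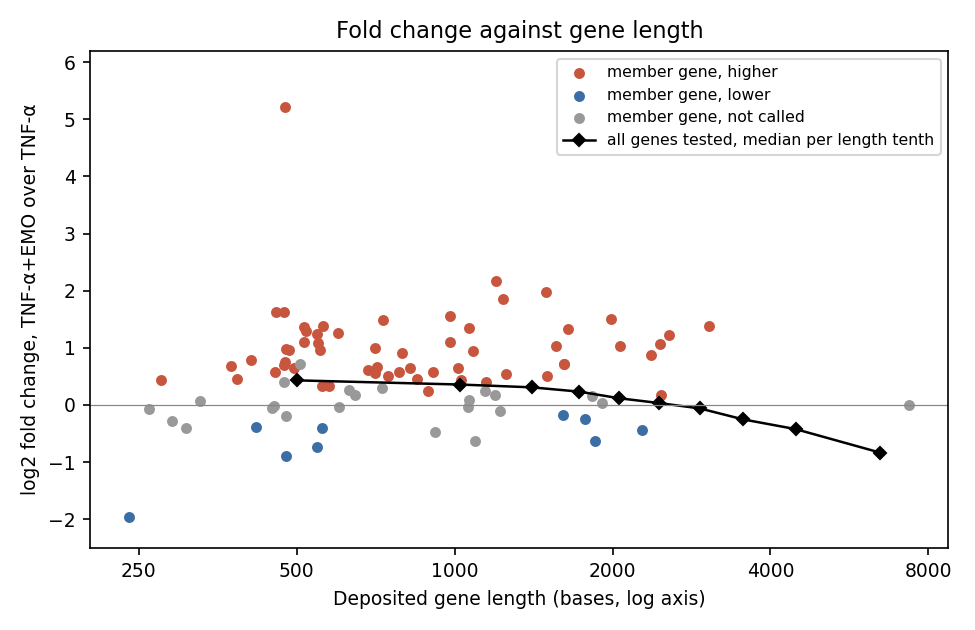
log2 fold change (TNF-α+EMO over TNF-α) of the 90 tested OXPHOS genes against deposited gene length in bases on a log axis, coloured by whether they rose, fell or did not pass, with the median of all genes in each of 10 bins of length as black diamonds. The black line runs from 0.43 to -0.83, and most OXPHOS genes lie in its left part, on both sides of it.

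One library stood apart. TNF-α+EMO replicate 3 held the highest value of its group for 74 of the 90 genes, against 37.7% of all genes, and lay above the mean of the other two by a median of 0.25 on the log2 scale. Over all genes of up to 1000 bases that median was 0.21, and over longer genes -0.019. Without that library, 60 OXPHOS genes rose and 14 fell (66.7% and 15.6%), with a median log2 fold change of 0.41. In that refit 39.8% of all genes rose and 42.1% fell, with a median of -0.03. Its total of 17794455 counts was the highest of the 6, of which the lowest was 16813322. The part of this library in the results was not tested beyond leaving it out.

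The cell type label was checked against markers. Of 14 synovial fibroblast markers, 11 could be tested, of which 10 fell and 1 rose (Dcn, which had at most 34 normalized counts). Their summed level ranged from 283827 to 314733 normalized counts with TNF-α and from 36725 to 39508 with EMO. Fap, Lum, Thy1 and Prg4 were at 0 in all TNF-α+EMO libraries, and Thy1 and Prg4 had at most 7 counts with TNF-α. Of 8 epithelial markers 2 could be tested (1 rose, 1 fell, summed 9971 to 10813 against 1984 to 2333), with Epcam and Esrp1 at 0 in every library. Nearly all of that sum was Krt8, which fell (mean 10389 against 2140 normalized counts). Cldn4 rose from 0 to at most 28 counts. Of 7 macrophage markers 3 could be tested (2 rose, 1 fell, summed 1202 to 1306 against 747 to 818), with Ptprc at 1 count or fewer. Cd14 fell (mean 1093 against 510 normalized counts) and Cd68 rose (153 against 256). Itgam rose from at most 1 count to at most 14. Of 5 endothelial markers 1 could be tested and fell (summed 69.2 to 76.5 against 13.2 to 21.7), with Kdr at 0 in every library. What part these differences have in the OXPHOS values was not tested.

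Promoter sequence was examined for letters known as binding motifs of the regulators. RefSeq promoters (GRCr8, 250 bases before to 50 after the start) were matched by symbol for 80 of the 99 genes and searched on both strands. NRF1's letters (GCGCA and GCGC with any 1 base between them) were found in 14 of 80 (17.5%) and in 4.71% of all 27457 promoters, GABP's CCGGAAG in 22 (27.5%) and 9.22%, and YY1's AAGATGGCG in 10 (12.5%) and 1.93%. At least 1 of the 3 was in 40 OXPHOS promoters (50%) and in 14.3% of all. Matches of different motifs shared bases in 0 of the 80. The base composition of the promoter sets was not compared.

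The same counts were made by direction of change. The NRF1 motif was in 14% of the 50 promoters of genes that rose, in 12.5% of the 8 of genes that fell and in 37.5% of the 16 of genes that did not pass. In the same order, the GABP motif was in 22%, 37.5% and 43.8%, and the YY1 motif in 14%, 25% and 6.25%. The motif TCAAGGTCA of estrogen-related receptors, added after the values of Esrra were seen, was in 2 of 80 (2.5%) and in 0.412% of all promoters. These are counts of letters in a window, and they were not tested.

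The promoters of 5 genes are printed as RefSeq gives them for GRCr8, in the direction of the gene, because their genes carry the contrasts described next: Cox6a2 and Cycs had the highest log2 fold changes of the 90 tested members, Sdhb and Sdha moved in opposite directions within complex II, and Uqcrc1 held more than 1 kind of motif. Capitals mark a match to the NRF1, GABP or YY1 letters on either strand.
Cycs (chr4:80984718-80985017, minus strand): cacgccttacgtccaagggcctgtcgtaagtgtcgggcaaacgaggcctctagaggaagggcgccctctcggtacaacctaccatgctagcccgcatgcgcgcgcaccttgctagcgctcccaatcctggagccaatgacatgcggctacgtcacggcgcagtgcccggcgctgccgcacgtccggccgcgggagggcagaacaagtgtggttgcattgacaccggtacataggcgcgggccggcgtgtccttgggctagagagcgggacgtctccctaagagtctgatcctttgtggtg
Cox6a2 (chr1:192219667-192219966, minus strand): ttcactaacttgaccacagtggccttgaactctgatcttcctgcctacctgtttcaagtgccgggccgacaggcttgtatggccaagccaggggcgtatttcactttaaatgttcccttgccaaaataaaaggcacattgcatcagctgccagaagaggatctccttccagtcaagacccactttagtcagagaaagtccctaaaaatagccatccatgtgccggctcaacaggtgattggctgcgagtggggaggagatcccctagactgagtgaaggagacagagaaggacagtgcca
Sdhb (chr5:158547684-158547983, plus strand): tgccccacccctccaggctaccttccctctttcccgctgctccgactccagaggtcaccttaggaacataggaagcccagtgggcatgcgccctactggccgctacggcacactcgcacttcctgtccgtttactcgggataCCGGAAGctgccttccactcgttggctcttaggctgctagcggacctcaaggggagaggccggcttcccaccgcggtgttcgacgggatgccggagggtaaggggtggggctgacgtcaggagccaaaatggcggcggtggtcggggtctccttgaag
Sdha (chr1:30764303-30764602, plus strand): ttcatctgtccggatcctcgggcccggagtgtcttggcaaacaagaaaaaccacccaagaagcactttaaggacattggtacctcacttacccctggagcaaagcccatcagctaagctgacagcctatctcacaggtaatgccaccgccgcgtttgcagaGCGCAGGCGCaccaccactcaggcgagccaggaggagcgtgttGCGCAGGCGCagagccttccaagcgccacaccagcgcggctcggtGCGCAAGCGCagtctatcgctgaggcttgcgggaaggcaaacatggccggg
Uqcrc1 (chr8:118467973-118468272, plus strand): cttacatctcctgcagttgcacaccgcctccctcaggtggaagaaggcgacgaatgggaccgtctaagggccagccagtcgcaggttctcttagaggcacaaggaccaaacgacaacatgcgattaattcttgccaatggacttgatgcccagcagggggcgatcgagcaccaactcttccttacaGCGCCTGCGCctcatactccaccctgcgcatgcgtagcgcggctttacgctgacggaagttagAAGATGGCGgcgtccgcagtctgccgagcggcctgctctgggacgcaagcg
The Cycs and Cox6a2 windows held no exact match to the letters of the 3 motifs. Only exact matches to these letters were searched for, and whether the windows hold sites with other letters was not tested. Sdhb held GABP's letters at bases 143 to 149, and Sdha held NRF1's at bases 162 to 171, 205 to 214 and 250 to 259. Uqcrc1 held NRF1's letters at bases 187 to 196 and YY1's at bases 250 to 258. Bases are counted from 1 at the left end, and the gene's start follows base 250.

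**Figure D3:**
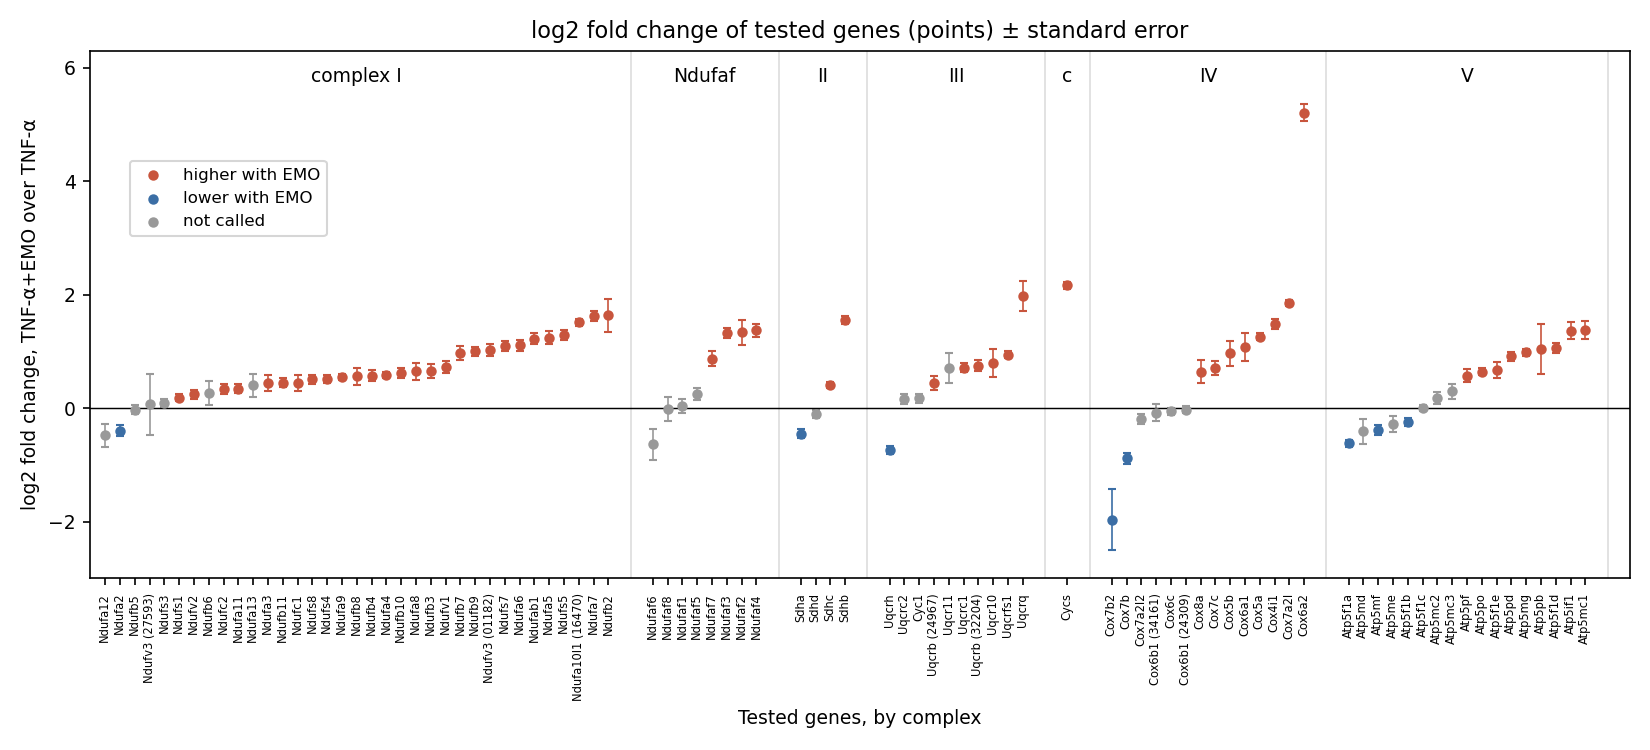
log2 fold change (TNF-α+EMO over TNF-α) ± standard error of the tested genes except 1 that is not reported, grouped by complex (c is cytochrome c; repeated symbols carry the end of their identifier) and sorted within it; red genes rose, blue genes fell and grey genes did not pass. Cox6a2 stands alone at 5.21, and complexes I to V each hold red and blue genes.

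For the counts by complex that follow, 39.4% of all genes tested rose and 41.4% fell, or 39.8% and 40.6% length-adjusted. Complex I takes electrons from NADH. Of its 39 subunit rows, 36 were tested, of which 28 rose, 2 fell and 6 did not pass, with a median log2 fold change of 0.555 (length-adjusted, 16 rose and 7 fell, median 0.15). The 29 tested accessory subunits, which surround the core, had 23 that rose and 1 that fell (median 0.575).

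Among core subunits, which carry the flavin and the iron-sulfur clusters, Ndufv1, which binds NADH and the flavin (chromosome 1, 219254279 to 219259448, Rnor_6.0), had 5519, 5031 and 5832 normalized counts with TNF-α and 7594, 8951 and 10491 with EMO. The log2 fold change was 0.72 (standard error, SE, 0.11, adjusted p = 0.00021), with no overlap between the groups. Ndufs1, the largest iron-sulfur subunit, had 2081, 2248 and 2291 against 2619, 2461 and 2433, with a change of 0.18 (SE 0.064, adjusted p = 0.021). The adjusted p of Ndufs1 was between 0.052 and 0.36 in 6 alternatives. Ndufv1 had a wide gap between the groups, and Ndufs1 a narrow one.

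The accessory subunits with the largest rises were Ndufb2, Ndufa7 and Ndufa10l1. Ndufb2, of the membrane arm (chromosome 4, 67378188 to 67385266), had 1000, 903 and 965 normalized counts with TNF-α and 2265, 2401 and 4238 with EMO. Its rise was 1.63 on the log2 scale (SE 0.29, adjusted p = 0.0036), and the third TNF-α+EMO library was far above the other two. Ndufa7 (chromosome 7, 18683553 to 18696330) had 747, 720 and 794 against 2189, 2156 and 2628, and rose by 1.62 (SE 0.088, adjusted p = 1.8e-08). The Ndufa10l1 row ENSRNOG00000016470 had 1487, 1553 and 1564 against 4585, 4418 and 4128, and rose by 1.51 (SE 0.063, adjusted p = 2.1e-09). For Ndufa10l1 that library was the lowest of its group. All 3 also rose with the length term, by 1.06, 1.07 and 1.35.

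Ndufa2 was the accessory subunit that fell. It had 776, 750 and 848 normalized counts with TNF-α and 616, 539 and 650 with EMO (log2 fold change -0.39, SE 0.093, adjusted p = 0.0023). It overlaps Tmco6 on the other strand, whose highest count was 92% of the lowest of Ndufa2, and the counting program and strand setting are not given in the sources used here, so its value is uncertain. Ndufa4, first assigned to complex I and now known as a subunit of complex IV, had 3323, 3287 and 3515 against 4897, 4936 and 5354, and rose by 0.58 (SE 0.061, adjusted p = 4.8e-06). By its name Ndufa4 is counted among the complex I and accessory subunits here, as is the untested row Ndufa4l2. It overlaps Phf14 on the other strand, whose highest count was 67.2% of its lowest. Of the 99 rows, 20 overlapped another row, and for 9 the other row's highest count reached at least 10% of the OXPHOS gene's lowest.

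Ndufa1, an accessory subunit on the X chromosome, could not be tested. It had 2, 2 and 2 counts with TNF-α and 32, 3 and 6 with EMO. A row described as the same subunit, LOC108348144, held 6, 4 and 139 counts with TNF-α and 9, 135 and 401 with EMO. Reads of such copies may be split in counting. Ndufa1 was higher in each TNF-α+EMO library, but near the floor of counting, and the groups overlapped for the copy. The other untested rows were the second Ndufa10l1 row (0 in every library), Ndufa4l2 (at most 5 counts) and 6 of complex IV.

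Of the 8 Ndufaf assembly factors, which build complex I and are not part of it, 4 rose and 4 did not pass (median 0.56, length-adjusted 4 rose and 2 fell). Ndufaf4 had 162, 152 and 146 normalized counts with TNF-α and 388, 429 and 377 with EMO (log2 fold change 1.37, SE 0.11, adjusted p = 5.3e-07). Ndufaf3 had 380, 369 and 425 against 912, 1018 and 1014 (1.33, SE 0.089, adjusted p = 1.1e-07). Ndufaf7 had 157, 126 and 154 against 275, 247 and 277 (0.87, SE 0.14, adjusted p = 0.00012). The groups did not overlap for any of these 3.

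Complex II, the only complex made wholly from nuclear genes, had 2 genes that rose, 1 that fell and 1 that did not pass, with a median log2 fold change of 0.15. Sdhb, the iron-sulfur subunit (chromosome 5, 159484370 to 159505064), had 1175, 1274 and 1205 normalized counts with TNF-α and 3458, 3359 and 3923 with EMO, and rose by 1.56 (SE 0.074, adjusted p = 6.4e-09). Its partner Sdha, the flavoprotein that oxidizes succinate (chromosome 1, 31545631 to 31570601), had 2860, 2894 and 3060 against 2054, 2051 and 2364, and fell by 0.45 (SE 0.071, adjusted p = 0.00014). The catalytic pair of the complex moved in opposite directions, also with the length term (1.17 and -0.51). The membrane anchors differed as well: Sdhc had 2461, 2413 and 2358 against 3135, 3213 and 3235 (log2 fold change 0.41, SE 0.055, adjusted p = 4.2e-05).

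Sdhd, the other anchor, had 1754, 1730 and 1894 normalized counts with TNF-α and 1613, 1682 and 1717 with EMO (log2 fold change -0.10, SE 0.064, adjusted p = 0.16). Its groups did not overlap, but the difference did not pass. With the length term Sdhc no longer passed (0.053, adjusted p = 0.38), Sdhd fell (-0.44, adjusted p = 1.8e-05) and the median of the complex turned to -0.19. With total counts as the scale the median was 0.039.

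Complex III passes electrons from ubiquinol to cytochrome c. Of its 10 tested rows, 6 rose, 1 fell and 3 did not pass, with a median log2 fold change of 0.71 (length-adjusted, 4 rose and 2 fell, median 0.18). Both rows named Uqcrb are among the 6 (0.44 and 0.75), so the rows do not all stand for different subunits. Uqcrq, a small ubiquinone-binding subunit (chromosome 10, 38779132 to 38782419), had 1979, 1436 and 1677 normalized counts with TNF-α and 5628, 5386 and 8994 with EMO, and rose by 1.97 (SE 0.26, adjusted p = 0.001). Uqcrfs1, the Rieske iron-sulfur protein (chromosome 17, 35677984 to 35682259), had 3377, 3216 and 3392 against 6321, 6695 and 6221, and rose by 0.95 (SE 0.058, adjusted p = 5.2e-08). Uqcrc1, a core protein whose promoter holds NRF1 and YY1 letters, had 2714, 2524 and 2631 against 3940, 4174 and 4809, and rose by 0.72 (SE 0.078, adjusted p = 6.6e-06). These 3 showed no overlap between the groups and also rose with the length term (1.69, 0.58 and 0.46).

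The hinge protein Uqcrh, which helps bind cytochrome c1, went the other way. It had 1219, 1175 and 1235 normalized counts with TNF-α and 701, 731 and 743 with EMO (log2 fold change -0.74, SE 0.069, adjusted p = 1.9e-06). Uqcr10, a small subunit, had 132, 146 and 141 against 201, 174 and 353, with the third TNF-α+EMO library far above the rest (0.79, SE 0.24, adjusted p = 0.013), and did not pass with the length term (0.21, adjusted p = 0.34). Cyc1, the heme-bearing cytochrome c1, had 2492, 2263 and 2353 against 2415, 2614 and 2985. Its groups overlapped (log2 fold change 0.17, SE 0.081, adjusted p = 0.071), and with the length term the value was -0.17 (adjusted p = 0.032).

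Cytochrome c, the carrier between complexes III and IV and a signal of apoptosis when released, had the highest log2 fold change of the 90 tested members after Cox6a2. Cycs (ENSRNOG00000010452, chromosome 4, 80331227 to 80333326) had 1926, 2033 and 2234 normalized counts with TNF-α and 9073, 9349 and 9356 with EMO. It was 4.49-fold higher (log2 fold change 2.17, SE 0.068, adjusted p = 2.3e-10), with each group close together and far from the other. With the length term the log2 fold change was 1.82. A second row described as somatic cytochrome c, LOC100363502 (chromosome 18, 62476383 to 62476700), was outside the rule by its name and had 386, 404 and 468 counts with TNF-α and 1507, 1584 and 1347 with EMO (log2 fold change 1.89, SE 0.097, adjusted p = 1.2e-08). Reads of near-identical copies can be shared between the rows, so the split between them is uncertain, and both rose.

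Complex IV had 20 rows, of which 14 were tested, with 8 that rose, 2 that fell and 4 that did not pass (median log2 fold change 0.67; length-adjusted, 6 rose and 6 fell, median 0.12). The length-adjusted shares, 42.9% that rose and 42.9% that fell, were close to those of all genes (39.8% and 40.6%). The widest change of all 90 genes was that of Cox6a2, known as the heart and skeletal muscle form of subunit VIa (ENSRNOG00000019851, chromosome 1, 199624037 to 199624783). It had 48.1, 41.0 and 30.2 normalized counts with TNF-α and 1304, 1455 and 1670 with EMO. It was 37.1-fold higher (log2 fold change 5.21, SE 0.16, adjusted p = 1.9e-10). The low level with TNF-α and the high level with EMO were found in every library, and with the length term the log2 fold change was 4.66.

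Cox7a2l, which takes part in joining complexes III and IV into supercomplexes (chromosome 6, 6695827 to 6709783), had 1906, 1844 and 1992 normalized counts with TNF-α and 6856, 7026 and 6874 with EMO (log2 fold change 1.85, SE 0.058, adjusted p = 2.3e-10). Cox4i1, a regulatory subunit (chromosome 19, 54245950 to 54252225), had 4103, 3904 and 4117 against 10242, 10846 and 12854 (1.49, SE 0.083, adjusted p = 2.5e-08). Both showed wide gaps between the groups, and with the length term they rose by 1.52 and 1.03. Cox5a had 1616, 1625 and 1521 against 3654, 3764 and 3972 (1.26, SE 0.062, adjusted p = 8.2e-09), and Cox5b, which binds zinc, had 1496, 1159 and 1135 against 2050, 2124 and 3230 (0.97, SE 0.22, adjusted p = 0.0076). Both passed with the length term, at 0.755 and 0.405.

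Cox6a1, the form of subunit VIa found in most tissues, had 3387, 2667 and 2905 normalized counts with TNF-α and 4954, 5453 and 8526 with EMO (log2 fold change 1.08, SE 0.24, adjusted p = 0.0088). Cox8a had 3283, 2989 and 3295 against 4037, 4277 and 6596 (0.64, SE 0.20, adjusted p = 0.026), and its adjusted p was 0.54 with the length term and between 0.055 and 0.069 in 3 other alternatives. In both genes, as in Cox5b, the third TNF-α+EMO library lay far above the other two. Cox6a1 overlaps Gatc on the same strand, whose highest count was 11.7% of its lowest.

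Cox7b, an accessory subunit on the X chromosome (77065397 to 77071676), had 1419, 1431 and 1767 normalized counts with TNF-α and 762, 833 and 905 with EMO. Its log2 fold change was -0.89 (SE 0.10, adjusted p = 1.0e-05), and -1.43 with the length term. The other gene that fell, Cox7b2, had 14, 14 and 10 counts against 1, 4 and 4 (log2 fold change -1.97, SE 0.54, adjusted p = 0.0058), too few for a firm value. The Cox6b1 row ENSRNOG00000024309 had 2130, 2067 and 2226 against 2036, 2056 and 2210, and its groups overlapped (log2 fold change -0.028, SE 0.062, adjusted p = 0.69). The second Cox6b1 row (ENSRNOG00000034161) had 361, 386 and 388 against 407, 396 and 273 and overlapped as well (-0.076, SE 0.14, adjusted p = 0.63). Cox7a2l2 had 1097, 1192 and 1202 against 972, 928 and 1159 (-0.19, SE 0.092, adjusted p = 0.077), and it and both Cox6b1 rows fell with the length term.

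The tissue-restricted forms other than Cox6a2 had few counts or none. Cox4i2, the form linked to low oxygen, had 1 count in 1 library, and Cox6b2 and Cox8c had 0 in all 6, as did Cox6c-ps1, a pseudogene by its name. Cox7a1, a heart and muscle form, had at most 6 counts, and Cox8b, another muscle form, had 1, 4 and 6 counts with TNF-α and 0 in every TNF-α+EMO library. Cox7b2 reached 14 counts with TNF-α and 4 with EMO. A count of 0 allows up to 3 counts, by counting error alone.

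Levels of different genes were compared per length, in TMM-scaled counts per kilobase of gene and per 1000000 counts of the library. Cox6a2 made up 1.61%, 1.74% and 1.19% of the summed level of Cox6a1 and Cox6a2 with TNF-α and 23.3%, 23.6% and 18.5% with EMO. Cox7a2l made up 40.2%, 37.5% and 39.1% of the summed level of Cox7a1, Cox7a2l and Cox7a2l2 with TNF-α and 73.2%, 74.5% and 69.6% with EMO. No row named Cox7a2 was among the 99 genes, so the Cox7a shares are of the rows named and not of the whole family. In both sets of genes the shares of the groups did not overlap. Cox7a2l (1235 bases) is longer than Cox7a2l2 (478 bases), and the pair was also compared with the length term. The log2 fold changes of Cox7a2l and Cox7a2l2 were 1.85 and -0.19, and 1.52 and -0.74 with the length term.

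**Figure D4:**
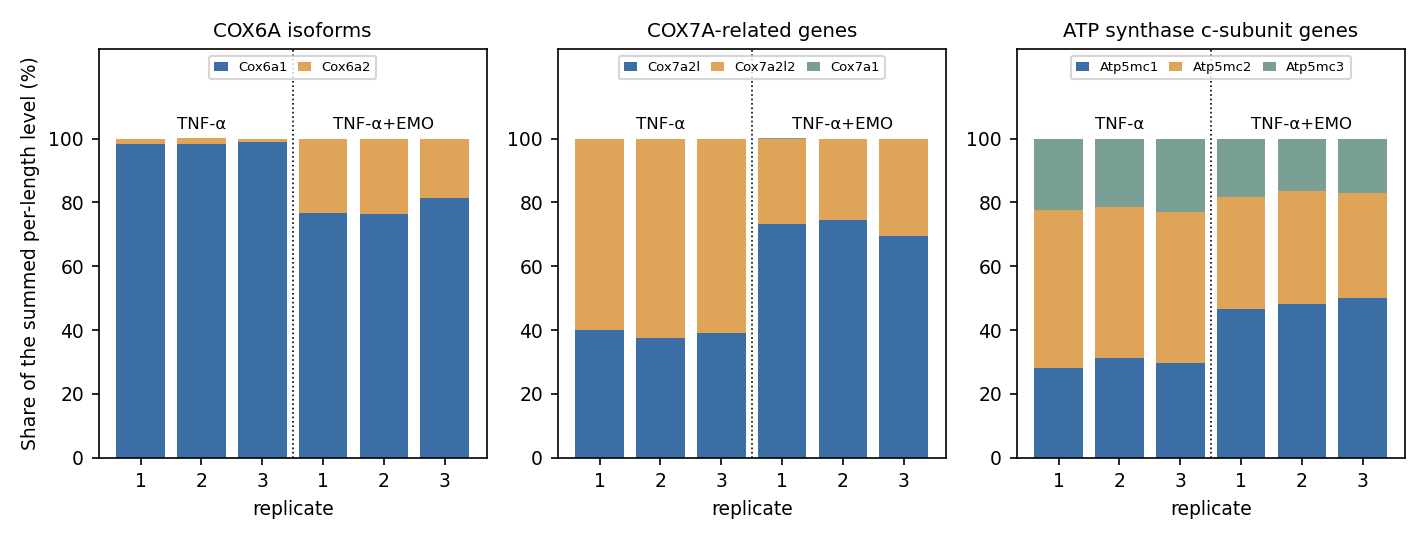
Share (%) of the summed per-length level taken by each gene of a paralog group in the 6 libraries, for Cox6a, Cox7a-related genes and the c-subunit genes of ATP synthase. Cox6a2, Cox7a2l and Atp5mc1 take a larger share in all 3 TNF-α+EMO libraries than in any TNF-α library.

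Complex V, the ATP synthase, had 17 tested genes, of which 9 rose, 3 fell and 5 did not pass (median log2 fold change 0.57; length-adjusted, 7 rose and 6 fell, median 0.16). Its parts differed in their counts. The 5 genes of the F1 part, head and central stalk together, summed to 31931, 31357 and 32398 normalized counts with TNF-α. With EMO the sums were 27809, 29475 and 32041, a ratio of 0.934 with overlapping groups. Within this sum Atp5f1a and Atp5f1b fell, Atp5f1d and Atp5f1e rose, and Atp5f1c did not pass. With the length term Atp5f1e did not pass and Atp5f1c rose. The 4 genes of the peripheral stalk, which holds the head still, all rose (median 0.78), 2 of them with the length term. Of the other two, Atp5pb had few counts and overlapping groups (adjusted p = 0.048), and Atp5pf lies over Gabpa on the opposite strand, whose highest count was 82.8% of the lowest of Atp5pf.

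Atp5f1b, the catalytic beta subunit (chromosome 7, 2504695 to 2511749), had 14849, 14653 and 14841 normalized counts with TNF-α and 11614, 11899 and 13793 with EMO, and fell by 0.25 (SE 0.069, adjusted p = 0.0064). Atp5f1a, the alpha subunit (chromosome 18, 74156553 to 74164495), had 10085, 10097 and 10300 against 6600, 6851 and 6354, and fell by 0.62 (SE 0.055, adjusted p = 1.1e-06). Both groups were clear of each other for both genes. Atp5f1d, the delta subunit of the central stalk, rose by 1.06 (SE 0.092, adjusted p = 1.2e-06), from 2852, 2746 and 3123 to 5263, 6148 and 6780. With the length term the 3 values were -0.48, -0.82 and 1.06.

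Atp5if1, the inhibitor that stops the enzyme from running backwards and splitting ATP (chromosome 5, 150719569 to 150723321), had 1490, 1404 and 1656 normalized counts with TNF-α and 3307, 3567 and 4869 with EMO. It rose by 1.37 (SE 0.15, adjusted p = 4.9e-05), and by 0.82 with the length term. Atp5mf, a small membrane subunit, fell from 1956, 1735 and 2028 to 1325, 1444 and 1613 (log2 fold change -0.38, SE 0.087, adjusted p = 0.0018; length-adjusted -0.945). The inhibitor was higher, and the alpha and beta subunits lower, in each of the 3 TNF-α+EMO libraries than in any TNF-α library.

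The c subunit, which forms the turning ring, is made from 3 genes that give the same mature protein. Atp5mc1 (chromosome 10, 83895947 to 83898527) had 1926, 1914 and 2022 normalized counts with TNF-α and 4182, 4563 and 6479 with EMO, and rose by 1.38 (SE 0.16, adjusted p = 0.00014). Atp5mc2 had 3905, 3358 and 3699 against 3658, 3873 and 4899 (0.18, SE 0.11, adjusted p = 0.15), and Atp5mc3 had 1988, 1691 and 2026 against 2134, 2031 and 2860 (0.30, SE 0.13, adjusted p = 0.067). In share of the summed per-length level, Atp5mc1 went from 28.1%, 31.2% and 29.8% to 46.5%, 48.1% and 50.1%, and Atp5mc2 from 49.4%, 47.5% and 47.2% to 35.2%, 35.4% and 32.8%. Atp5mc2 was the leading gene of the ring with TNF-α and Atp5mc1 with EMO, in every library. With the length term Atp5mc1 rose by 0.84, Atp5mc2 fell by 0.31 (adjusted p = 0.0017) and Atp5mc3 did not pass (-0.16, adjusted p = 0.13). Atp5pb, of the stalk, had 8 to 17 counts with TNF-α and 14 to 39 with EMO, and a copy, LOC100911417, had 39 to 52, so the b subunit was hardly counted.

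Per length, the median tested gene of complex IV and that of complex V were near each other with TNF-α and apart with EMO. The median level of the 14 tested genes of complex IV was 175 ± 7.89 scaled counts per kilobase and 1000000 counts with TNF-α and 311 ± 38.1 with EMO (SD, n = 3 libraries each), and that of complex V was 167 ± 7.69 and 217 ± 11.1. With TNF-α these 2 medians were closer than the sum of their SDs. Complex I stood at 77.1 ± 4.33 and 105 ± 10.8, complex II at 80.6 ± 3.22 and 121 ± 2.60, and complex III at 91.4 ± 5.05 and 139 ± 15.1. With TNF-α the order over tested genes was complex I, II, III, V and IV, of which I and II, and V and IV, did not differ beyond their spread. The order rests on leaving out untested rows. Over all 20 rows of complex IV, the 6 hardly counted ones included, the median of the genes' group means was 116 with TNF-α and 153 with EMO. It was below the 167 and 207 of complex V by the same measure. The values with ± are instead means of the 3 library medians, which is why complex V has 217 there. Cycs went from 100 ± 7.57 to 449 ± 7.81, above every complex's median with EMO. The Ndufaf factors were far lower, at 5.91 ± 0.311 and 8.08 ± 0.0771.

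**Figure D5:**
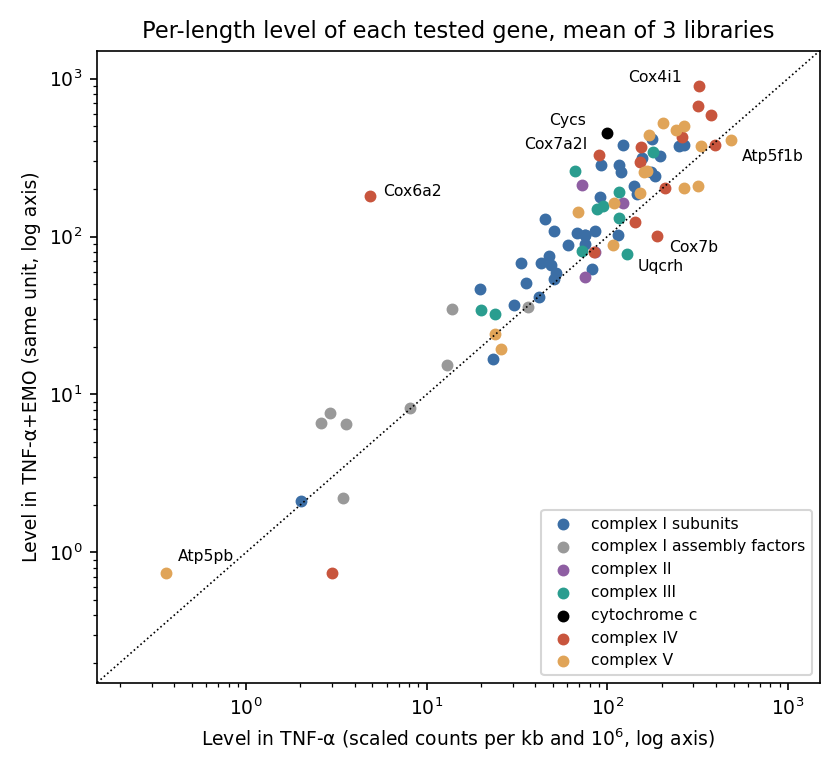
Mean per-length level of each of the 90 tested genes in TNF-α (x axis) and TNF-α+EMO (y axis), both in scaled counts per kilobase and 1000000 counts on log axes, coloured by complex, with a dotted line of equal level. Most genes lie just above the line, Cox6a2 lies far above it (4.87 to 181), and Atp5f1b, the highest gene with TNF-α (485), lies just below it (408).

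Assembly factors build the complexes without being part of them. For the counts of this and the following lists, 39.4% of all genes tested rose and 41.4% fell, or 39.8% and 40.6% length-adjusted. Of 21 tested for complex IV, 16 rose, 3 fell and 2 did not pass (median log2 fold change 0.74; length-adjusted, 13 rose and 3 fell). Cox17, a copper chaperone, had 184, 170 and 214 normalized counts with TNF-α and 936, 990 and 1537 with EMO (2.61, SE 0.21, adjusted p = 8.6e-06), and Coa3 had 852, 777 and 809 against 3075, 3063 and 3216 (1.94, SE 0.064, adjusted p = 3.3e-10). Cox16 fell by 0.87 and Cox20 by 0.63. The list was drawn broadly, and its risers include Fastk and Lrpprc, which are not assembly factors in the strict sense. All 3 TNF-α+EMO libraries were above all TNF-α libraries for Cox17 and Coa3.

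For complex III, 5 of 6 assembly factors rose and 1 did not pass (median 0.84; length-adjusted, 5 rose and 1 fell), led by the chaperone Bcs1l (1.26, adjusted p = 9.7e-08). For complex V, 4 of 5 rose (median 0.89), and Atpaf1, which handles the beta subunit, fell by 0.51 (adjusted p = 0.00054). With the length term 4 of these 5 rose and 0 fell, so the fall of Atpaf1 was lost. For complex I, 6 of 11 factors outside the Ndufaf names rose and 3 fell (median 0.30; length-adjusted, 5 rose and 2 fell, median 0.11). Lyrm2 rose by 1.23 and Timmdc1 fell by 1.39. For complex II, 2 of 3 rose and 1 fell. Of 15 other partners of the chain, 9 rose, 3 fell and 3 did not pass (median 0.58). They included Higd2a (1.58) and Etfb (1.495), which rose, and the ubiquinone gene Coq8a (-1.60) and Etfdh (-0.995), which fell.

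Genes used as marks of mitochondrial mass rose as well: 13 of 15 rose, 1 fell and 1 did not pass, with a median log2 fold change of 0.62 (length-adjusted, 12 rose and 2 fell, median 0.34). Hspa9, the mitochondrial HSP70, rose by 2.62 (adjusted p = 2.4e-11) and the import channel Tomm40 by 1.66 (adjusted p = 1.1e-07), whereas Vdac3, a channel of the outer membrane, fell by 0.21 (adjusted p = 0.024). The medians of these genes and of the OXPHOS genes were 0.62 and 0.57, and 0.34 and 0.15 with the length term. Of 3 tested carriers, Slc25a3, which brings in phosphate, rose by 0.31, Slc25a4, an ADP/ATP carrier, fell by 1.44 (adjusted p = 1.5e-05), and Slc25a5, another, was at 0.084 (adjusted p = 0.30). With the length term 0 of these 3 rose and 2 fell, so the rise of Slc25a3 was lost.

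The subunits encoded on mitochondrial DNA are the partners of these proteins. All 13 were lower with EMO, and their share of the counts went from 3.33% to 3.55% with TNF-α to 0.191% to 0.214% with EMO. Mt-co2, which sits in complex IV with Cox4i1 and Cox6a2, had 56779, 57745 and 56809 normalized counts with TNF-α and 1288, 1211 and 1167 with EMO (log2 fold change -5.55, adjusted p = 8.1e-13). Mt-co3 of the same complex fell by 2.72, and the log2 fold change of Mt-nd3, of complex I, was -5.985. The libraries were poly(A)-selected, so these values are of polyadenylated transcripts.

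Of 18 listed regulators of nuclear OXPHOS genes, 14 were tested, of which 4 rose, 7 fell and 3 did not pass (length-adjusted, 8 rose and 4 fell). Esrra, an estrogen-related receptor, had 1209, 1052 and 1066 normalized counts with TNF-α and 2836, 3022 and 4746 with EMO (log2 fold change 1.67, SE 0.22, adjusted p = 0.0007). Nrf1 rose by 0.46 (adjusted p = 0.00014), from 695, 752 and 771 to 1020, 1018 and 1014. Among the GABP subunits, Gabpa was at -0.11 (adjusted p = 0.26), and Gabpb1 and Gabpb2 fell by 1.14 and 0.73. Yy1 was at 0.17 (adjusted p = 0.063) and Tfam, which acts on mitochondrial DNA, at 0.10 (adjusted p = 0.23). Hcfc1 fell by 0.64, and the coactivator Ppargc1b, which was scarce, fell by 2.08. Its relative Ppargc1a had at most 1 count in any library. The falls named here are without the length term, with which 4 of the 14 tested regulators fell. Which of the named falls held with it is not given here. Hcfc1 is 9121 bases long, and all genes in the longest bin of length had a median log2 fold change of -0.83.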

How the data were processed

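RNA of 6 rat RA-FLS libraries (3 TNF-α, 3 TNF-α+EMO) was measured. Per the labels and the study's methods, the authors selected poly(A) RNA, sequenced it from both ends, cleaned reads with FastQC and Trimmomatic and aligned them with HISAT2 to Rnor_6.0. The counting program, strand setting and annotation version are not given in the sources used here. The authors deposited raw counts per gene, and FPKM values scaled by gene length and mapped fragments, which were used only to recompute the median level of each complex. The deposited log2 fold changes, p-values and group mean scores are the authors' own comparison and were not used. Gene lengths and coordinates are as deposited.

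Genes reaching 10 counts in 3 or more libraries were scaled by TMM and tested with edgeR 4.0.16 in R 4.3.3 (robust quasi-likelihood fit), with Benjamini-Hochberg adjustment over all 13614 genes, and a change was called at an adjusted p under 0.05. The log2 fold change is TNF-α+EMO over TNF-α. Normalized counts are counts scaled by TMM library size, and per-length levels are TMM-scaled counts per kilobase and 1000000 counts. The common biological coefficient of variation was 0.121. On simulated counts (13400 genes, 200 changed) edgeR recovered 85% of 2-fold and 99% of 4-fold changes, with 8% false calls. DESeq2 gave 14.93% false calls there. In the 6 libraries far more genes changed (80.9% of those tested), and whether these rates hold at that share was not tested. Libraries held 16813322 to 17794455 counts. The floor of 3 counts covers counting error only. An exact permutation test of 3 against 3 cannot go below p = 0.1, so the p-values depend on edgeR's pooling of the spread over genes.

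The genes and lists were chosen with earlier results of these data known. Named were, per complex, the 3 highest and 3 lowest log2 fold changes among called genes with a mean of at least 100 counts, the paralog groups and catalytic subunits, and, per other list, the 2 highest and 2 lowest. The replicate numbers did not pair the libraries (correlations of same-numbered deviations 0.0193, -0.00683 and 0.0676). Alternatives were other scalings, filters, DESeq2 1.42.0, the replicate block, leaving out each library and, added after seeing the data, a loess offset on gene length. RefSeq promoters (GRCr8) were matched by symbol. No genome was used here. The values of 1 complex I gene are not reported here.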

Additional observations from a re-analysis of the deposited data

How the results depend on the processing

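The lead counts (58 genes that rose, 9 that fell, median 0.57) were recomputed under every alternative. With an absolute log2 fold change over 1 they were 24 and 1, while 19.5% of all genes rose and 27.8% fell. With the length offset, added after seeing the data, 25 fell and 39 rose, and the median was 0.15. The share of calls that were rises went from 86.6% to 60.9%, beside 48.7% and 49.5% over all genes. By that fit 39.8% of all genes rose and 40.6% fell. With total counts as the scale, which moved the median of all genes to -0.125, 16 fell and 54 rose. On that scale 35.8% of all genes rose and 44.2% fell. Leaving out 1 library at a time gave 53 to 61 that rose, 8 to 14 that fell and medians of 0.41 to 0.64, with 14 and 0.41 without TNF-α+EMO replicate 3. Of all genes, 37.3% to 39.8% rose and 39.5% to 42.1% fell in these fits. DESeq2 gave 60 that rose and 10 that fell, beside 38.5% and 41% of all genes. Without the Ndufaf factors, 54 of 82 rose and 9 fell, beside 39.4% and 41.4% of all genes. The deposited FPKM put the median level of complex IV at 174 with TNF-α and 308 with EMO, beside 175 and 311. Of the 41 genes chosen by the naming rule, 29 kept their call in all 14 alternatives and 12 changed in at least 1. The length offset turned the log2 fold change of Atp5mc2 to -0.31, that of Cyc1 to -0.17 and the median of complex II to -0.19. The cause of these changes was not tested, beyond the length term itself.

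The replicate numbers did not pair the libraries, and with the replicate block 59 genes rose and 10 fell (median 0.56), while Atp5mc3 passed (0.29, adjusted p = 0.01 by edgeR). With the block 38.7% of all genes rose and 40.7% fell. Few or no counts limit the values of Ndufa1, Atp5pb, Cox7b2 and the tissue-restricted forms of complex IV other than Cox6a2. Rows described as the same subunits as Ndufa1 and Atp5pb also held counts. Why these rows had few counts was not tested.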
